A study of Mus musculus with 35 samples.

Results

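The genes described here are 32 that define the identity of B cells: the signalling chains of the B cell receptor and the proteins that relay its signal, surface antigens, homing and survival receptors, the transcription factors that set the lineage, and an antigen presentation gene. They were listed by symbol, and a gene was measured where a probe set carried that symbol alone. That held for 31 of the 32, each with 1 probe set, out of 19938 genes in all, and H2-DMb2 is not analysed here. The series measured whole lung of adult male C57BL/6J mice of 20 to 25 g on 35 Affymetrix arrays, 1 animal to an array, and compared mechanical ventilation at low and high lung stretch with and without added CO2. The 5 non-ventilated controls breathed room air spontaneously. The 5 mice in low stretch normocapnia received 3 h of ventilation with breaths of 10 mL/kg, at 135 breaths per minute and an end-expiratory pressure of 2.0 cmH2O, on room air. The 5 in low stretch hypercapnia had the same settings with a CO2 fraction of 0.12 in room air. The 10 in high stretch normocapnia received about 35 to 40 mL/kg for 3 h at a peak pressure of 27 cmH2O, 30 to 35 breaths per minute and an end-expiratory pressure of 0, with an oxygen fraction of 0.75 and no CO2. The 10 in high stretch hypercapnia had these settings and a CO2 fraction of 0.12. Ventilated mice were anaesthetised and had a tracheostomy, and the labels used here give no time under anaesthesia for the controls. Lungs were taken after exsanguination and lavage of the airways.

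B cells carry a membrane immunoglobulin that binds antigen and, through CD79A and CD79B, starts a kinase cascade in which BLK, BLNK and BANK1 take part. PAX5 and EBF1 establish and hold the lineage, while SPIB, OCA-B (Pou2af1), Oct2 (Pou2f2) and BACH2 tune its genes. In the lung, mature B cells sit mostly in the capillary bed and the interstitium, and they also travel with the blood and lymph.

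Values are the deposited signals on a log2 scale (RMA is named in the processing notes), so a difference of 1 is a 2-fold change; a signal can be compared between arrays for 1 gene but not between genes. The median signal of an array lay between 6.96 and 7.05 and its SD between 2.19 and 2.26, and no array stood apart by these. Among the B cell genes 1 control did: non-ventilated replicate 1 was the highest of its group for 24 of 31 genes, by a median of 0.35 above the group mean. The 17 measured T cell markers were also highest in that array, at a mean log2 signal of 7.21 against 6.87 to 7.02 in the other controls. Low stretch hypercapnia replicate 5 was the lowest of its group for 22 genes. Of the 31 genes, 13 lay above the median level of all genes, and no filter on level was applied.

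The B cell genes fell in the ventilated lung in all 4 ventilated groups. Of the 31, 26 passed as lower in low stretch normocapnia than in non-ventilated lung (adjusted p under 0.05 in limma, adjusted over all genes), where 5.17% of all genes passed as lower. The count was 25 in low stretch hypercapnia (7.02% of all genes), 25 in high stretch normocapnia (18.9%) and 24 in high stretch hypercapnia (17.6%). None passed as higher. The median difference over the 31 genes was -0.638 and -0.849 in the low stretch groups and -0.495 and -0.491 in the high stretch groups, with normocapnia first in each pair. Over all genes these medians were -0.006, 0.004, -0.028 and -0.037. The 4 comparisons share the same 5 controls. Without non-ventilated replicate 1 the counts were 24, 22, 21 and 22, in the same order. The median differences over the 31 genes were then smaller in size, at -0.523, -0.741, -0.386 and -0.418.

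The groups also separated array by array. Every array lay below every control for 20 of the 31 genes in low stretch normocapnia, where this held for 3.54% of all genes. The same was true of 21 genes in low stretch hypercapnia (3.95% of all genes), 12 in high stretch normocapnia (7.91%) and 16 in high stretch hypercapnia (5.98%). For 11 of the 31 genes it held in all 4 groups, as it did for 1.38% of all genes: Cd79a, Cd79b, Blk, Bank1, Ms4a1, Cr2, Fcer2a, Fcmr, Pax5, Spib and H2-Ob. These groups are compared with the same 5 controls. In whole lung, fewer B cells and less of these RNAs per B cell cannot be told apart.

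**Figure D1:**
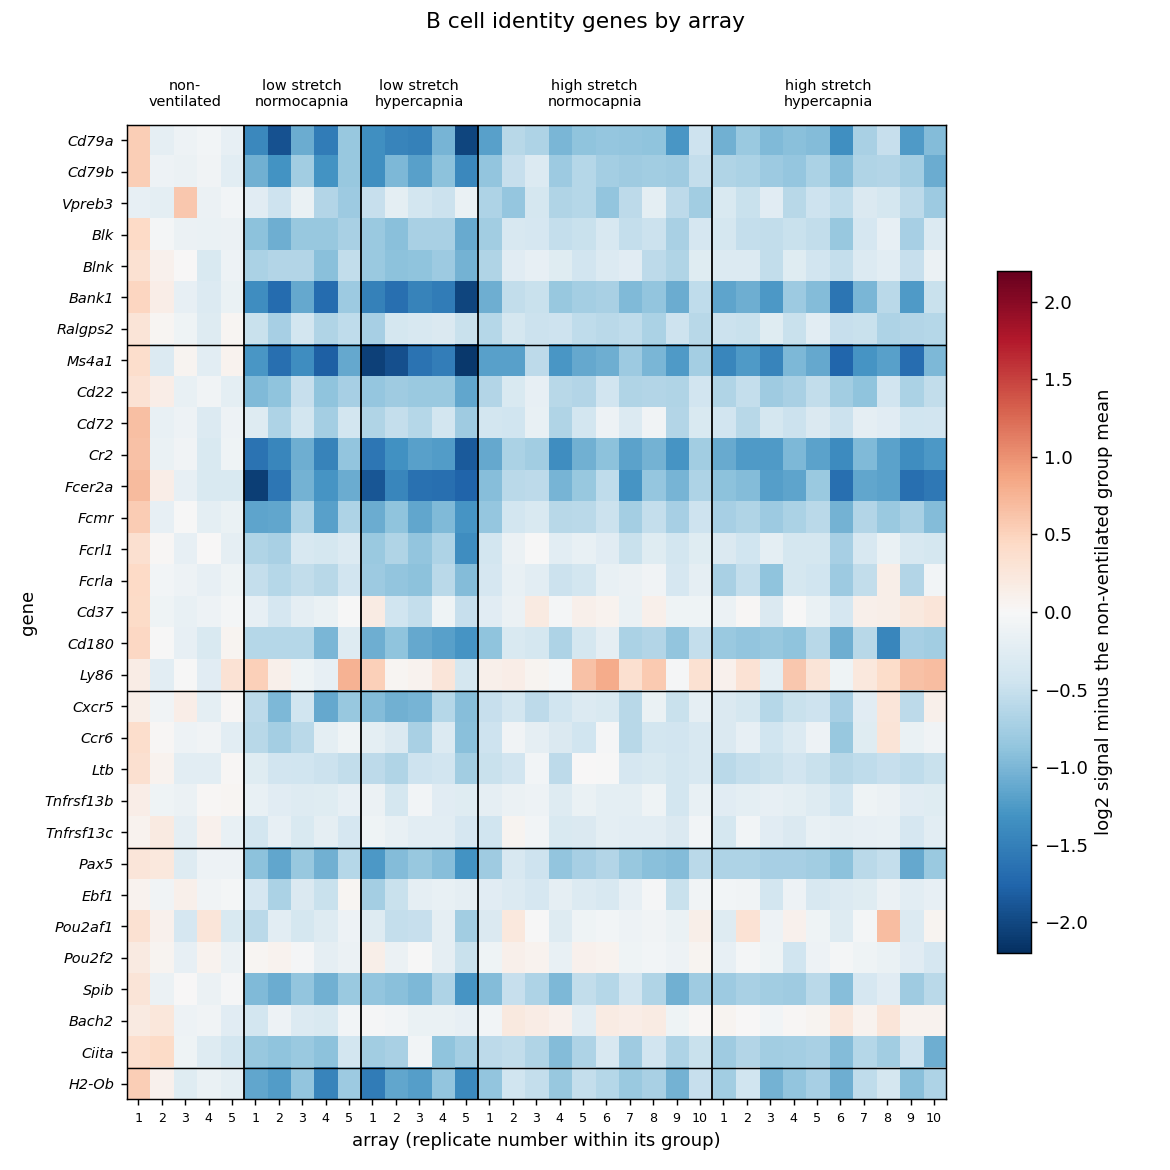
Log2 signal of 31 B cell genes (rows, in blocks by role) in 35 arrays (columns, numbered by replicate within each group), each shown as its difference from the mean of the 5 non-ventilated arrays. Most rows are blue in all ventilated groups and darkest in the low stretch groups, while Cd37, Ly86, Pou2f2 and Bach2 are not.

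The receptor chains and their signalling proteins all moved down: 7 of 7 passed as lower in low stretch normocapnia, high stretch normocapnia and high stretch hypercapnia, and 6 of 7 in low stretch hypercapnia. Cd79a gave log2 signals of 9.22, 8.48, 8.57, 8.62 and 8.50 in the non-ventilated arrays and 7.26, 6.76, 7.58, 7.14 and 7.85 in low stretch normocapnia. Its values were 7.33, 7.23, 7.19, 7.66 and 6.66 in low stretch hypercapnia, 7.39 to 8.23 (median 7.80) in high stretch normocapnia and 7.33 to 8.17 (median 7.73) in high stretch hypercapnia. All ventilated arrays lay below all controls, and the lowest of all was low stretch hypercapnia replicate 5. Cd79a, one of the pair of signalling chains that carry the antigen signal into the cell, was lower by 2.57-fold in low stretch normocapnia, 2.76-fold in low stretch hypercapnia, 1.83-fold in high stretch normocapnia and 1.93-fold in high stretch hypercapnia. Cd79b gave log2 signals of 9.29, 8.65, 8.62, 8.68 and 8.53 in the non-ventilated arrays and 7.69, 7.44, 7.99, 7.44 and 7.92 in low stretch normocapnia. With CO2 added at low stretch Cd79b read 7.40, 7.76, 7.56, 7.85 and 7.34, and the high stretch groups spanned 7.88 to 8.45 (median 8.00) in normocapnia and 7.67 to 8.11 (median 8.03) in hypercapnia. Again no ventilated array reached a control. Cd79b, the partner chain, fell by 1.06 ± 0.13 (limma SE) on the log2 scale in low stretch normocapnia (adjusted p = 2.68e-07) and by 0.67 ± 0.11 in high stretch normocapnia (adjusted p = 6.92e-06).

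Bank1 gave log2 signals of 8.38, 8.05, 7.73, 7.61 and 7.76 in the non-ventilated arrays and 6.54, 6.21, 6.78, 6.22 and 7.10 in low stretch normocapnia. The low stretch hypercapnia arrays gave 6.42, 6.24, 6.43, 6.37 and 5.88, and the high stretch groups spanned 6.82 to 7.42 (median 7.12) in normocapnia and 6.30 to 7.41 (median 6.87) in hypercapnia. The low stretch hypercapnia arrays were lowest on average, and the controls stood clear of every ventilated array. Bank1, a scaffold that links the receptor to calcium release, had one of the larger falls of this set, 2.52-fold in low stretch normocapnia, 3.11-fold in low stretch hypercapnia, 1.73-fold in high stretch normocapnia and 2.03-fold in high stretch hypercapnia. Blk gave log2 signals of 8.07, 7.60, 7.51, 7.50 and 7.51 in the non-ventilated arrays and 6.73, 6.57, 6.81, 6.80 and 6.92 in low stretch normocapnia. Its values were 6.83, 6.72, 6.93, 6.93 and 6.53 in low stretch hypercapnia, 6.87 to 7.28 (median 7.15) in high stretch normocapnia and 6.80 to 7.46 (median 7.13) in high stretch hypercapnia. Blk, a Src-family kinase that phosphorylates the receptor chains, separated from the controls in every group, with a fold of 1.83 in low stretch normocapnia and 1.41 in high stretch normocapnia. Blnk gave log2 signals of 7.53, 7.28, 7.19, 6.86 and 7.08 in the non-ventilated arrays and 6.50, 6.54, 6.55, 6.27 and 6.64 in low stretch normocapnia. In low stretch hypercapnia Blnk read 6.37, 6.29, 6.30, 6.39 and 6.14, and the high stretch groups spanned 6.52 to 7.00 (median 6.90) in normocapnia and 6.64 to 7.06 (median 6.88) in hypercapnia. The low stretch arrays of Blnk were all below the lowest control, whereas high stretch arrays reached into the control range: its fold was 1.61 and 1.85 in the low stretch groups and 1.3 and 1.28 in the high stretch groups. Blnk encodes the adaptor that couples the receptor kinases to phospholipase C.

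Ralgps2 and Vpreb3 had the smallest differences of this role in both low stretch groups, but not in the high stretch groups. Ralgps2, an exchange factor for Ral GTPases, differed by -0.57 in low stretch normocapnia and -0.54 in high stretch normocapnia. Vpreb3, which encodes a protein bound to immature immunoglobulin chains, differed by -0.46 and -0.62, and by -0.35 in low stretch hypercapnia, where it did not pass (adjusted p = 0.0772, 95% interval -0.62 to -0.08). These genes were the only receptor genes whose mean was not higher at high than at low stretch under both CO2 conditions.

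Of 11 surface antigens and co-receptors, 9 passed as lower in low stretch normocapnia, 9 in low stretch hypercapnia, 8 in high stretch normocapnia and 9 in high stretch hypercapnia. Ms4a1 gave log2 signals of 8.71, 8.02, 8.39, 8.09 and 8.40 in the non-ventilated arrays and 7.04, 6.66, 6.96, 6.52 and 7.20 in low stretch normocapnia. Its values were 6.27, 6.39, 6.69, 6.80 and 6.20 in low stretch hypercapnia, 7.05 to 7.74 (median 7.22) in high stretch normocapnia and 6.57 to 7.34 (median 7.05) in high stretch hypercapnia. The lowest control stood above the highest ventilated array. Ms4a1, which encodes CD20, fell by 2.73-fold in low stretch normocapnia, 3.62-fold in low stretch hypercapnia, 2.03-fold in high stretch normocapnia and 2.48-fold in high stretch hypercapnia, with limma adjusted p from 2.19e-10 to 2.13e-07. Fcer2a gave log2 signals of 8.13, 7.59, 7.26, 7.11 and 7.11 in the non-ventilated arrays and 5.37, 5.85, 6.40, 6.15 and 6.35 in low stretch normocapnia. With CO2 added at low stretch Fcer2a read 5.56, 6.01, 5.80, 5.79 and 5.68, and the high stretch groups spanned 6.14 to 6.88 (median 6.59) in normocapnia and 5.79 to 6.63 (median 6.27) in hypercapnia. Fcer2a, the low-affinity IgE receptor CD23 of mature follicular B cells, was as widely spread in the controls as in low stretch normocapnia, yet the groups did not overlap. Its fold was 2.67 in low stretch normocapnia and 1.79 in high stretch normocapnia.

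Cr2 gave log2 signals of 7.73, 6.95, 7.01, 6.76 and 7.00 in the non-ventilated arrays and 5.46, 5.65, 6.02, 5.62 and 6.22 in low stretch normocapnia. The low stretch hypercapnia arrays gave 5.50, 5.76, 5.90, 5.86 and 5.25, and the high stretch groups spanned 5.73 to 6.40 (median 6.04) in normocapnia and 5.70 to 6.12 (median 5.88) in hypercapnia. Cr2, the complement receptor CD21, was below every control in every ventilated array. Its differences were -1.30, -1.44, -1.02 and -1.19 in low stretch normocapnia, low stretch hypercapnia, high stretch normocapnia and high stretch hypercapnia. Cd22 gave log2 signals of 8.06, 7.89, 7.58, 7.67 and 7.54 in the non-ventilated arrays and 6.78, 6.86, 7.24, 6.86 and 7.01 in low stretch normocapnia. Its values were 6.89, 6.96, 6.93, 6.94 and 6.61 in low stretch hypercapnia, 7.08 to 7.57 (median 7.12) in high stretch normocapnia and 6.87 to 7.33 (median 7.07) in high stretch hypercapnia. Both low stretch groups of Cd22 lay wholly below the controls, and high stretch normocapnia overlapped them at 1 end. Cd22, an inhibitory lectin that dampens receptor signalling, fell 1.74-fold in low stretch normocapnia and 1.44-fold in high stretch normocapnia. Fcmr gave log2 signals of 8.69, 7.95, 8.13, 7.93 and 7.99 in the non-ventilated arrays and 6.97, 7.00, 7.46, 6.94 and 7.46 in low stretch normocapnia. In low stretch hypercapnia Fcmr read 7.04, 7.25, 7.00, 7.16 and 6.84, and the high stretch groups spanned 7.28 to 7.81 (median 7.59) in normocapnia and 7.09 to 7.54 (median 7.42) in hypercapnia. No ventilated array of Fcmr, the Fc receptor for IgM, reached a control; the differences were -0.97 ± 0.12 and -0.57 ± 0.11 (SE) in the normocapnia groups.

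Fcrl1 gave log2 signals of 7.56, 7.24, 7.03, 7.22 and 7.02 in the non-ventilated arrays and 6.56, 6.50, 6.87, 6.83 and 6.92 in low stretch normocapnia. Its values were 6.39, 6.56, 6.35, 6.54 and 5.85 in low stretch hypercapnia, 6.72 to 7.21 (median 6.96) in high stretch normocapnia and 6.49 to 7.06 (median 6.85) in high stretch hypercapnia. Fcrl1, an Fc receptor-like surface protein, was below every control in both low stretch groups and overlapped the controls at high stretch. It was 1.39-fold lower in low stretch normocapnia, 1.84-fold lower in low stretch hypercapnia and 1.2-fold lower in high stretch normocapnia. The toll-like receptor relative Cd180 changed by -0.64, -1.11, -0.56 and -0.86 in the order used above, and its adjusted p was between 1.06e-06 and 0.00257. Cd72, an inhibitory co-receptor, changed by -0.50 in low stretch normocapnia and Fcrla, an intracellular immunoglobulin-binding relative of the Fc receptors, by -0.54. Fcrla did not pass in high stretch normocapnia (-0.26, adjusted p = 0.0738).

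The homing and tumour necrosis factor family genes had smaller differences. All 5 passed as lower in both normocapnia groups, and 4 of 5 in each hypercapnia group. Cxcr5 gave log2 signals of 6.71, 6.51, 6.73, 6.36 and 6.60 in the non-ventilated arrays and 6.00, 5.60, 6.15, 5.46 and 5.75 in low stretch normocapnia. Its values were 5.62, 5.53, 5.56, 5.95 and 5.64 in low stretch hypercapnia, 5.98 to 6.43 (median 6.15) in high stretch normocapnia and 5.86 to 6.84 (median 6.16) in high stretch hypercapnia. Low stretch arrays of Cxcr5 were all below the controls, and some high stretch arrays lay inside or above the control range. Cxcr5, the receptor that brings B cells to follicles, was 1.73-fold and 1.89-fold lower in the low stretch groups and 1.32-fold and 1.27-fold lower in the high stretch groups. Ltb, the membrane anchor chain of lymphotoxin, differed by -0.43 in low stretch normocapnia and -0.53 in high stretch hypercapnia. The chemokine receptor Ccr6 differed by -0.45 in low stretch normocapnia (adjusted p = 0.0485). The receptors for the B cell survival factor BAFF, Tnfrsf13b (TACI) and Tnfrsf13c (the BAFF receptor), differed by -0.23 and -0.30.

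The lineage transcription factors split. Of 7, Pax5, Spib and Ciita passed as lower in all 4 groups, Ebf1 in 3, and Pou2af1 in low stretch hypercapnia alone, which gave 4, 5, 4 and 3 of 7. Pax5 gave log2 signals of 8.12, 8.08, 7.56, 7.74 and 7.74 in the non-ventilated arrays and 6.94, 6.71, 7.01, 6.79 and 7.22 in low stretch normocapnia. With CO2 added at low stretch Pax5 read 6.59, 6.89, 7.02, 6.91 and 6.54, and the high stretch groups spanned 6.90 to 7.49 (median 7.09) in normocapnia and 6.73 to 7.33 (median 7.12) in hypercapnia. No ventilated array of Pax5, the factor that commits cells to the B lineage, reached the lowest control, and its fold was 1.89-fold in low stretch normocapnia, 2.09-fold in low stretch hypercapnia, 1.64-fold in high stretch normocapnia and 1.69-fold in high stretch hypercapnia. Ebf1 gave log2 signals of 8.52, 8.36, 8.54, 8.36 and 8.40 in the non-ventilated arrays and 8.06, 7.74, 8.12, 7.94 and 8.48 in low stretch normocapnia. Its values were 7.68, 7.94, 8.23, 8.27 and 8.23 in low stretch hypercapnia, 7.94 to 8.41 (median 8.16) in high stretch normocapnia and 8.04 to 8.38 (median 8.22) in high stretch hypercapnia. Ebf1, which acts with Pax5 and is also made by stromal cells, overlapped the controls in low stretch normocapnia through replicate 5, and its differences were -0.37, -0.37, -0.26 and -0.21. The last did not pass (adjusted p = 0.0726). Spib, an Ets factor of B cells and plasmacytoid dendritic cells, was 1.94-fold lower in low stretch normocapnia, and Ciita, the switch for MHC class II genes, was 1.7-fold lower.

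H2-Ob gave log2 signals of 9.68, 9.24, 8.87, 9.00 and 8.92 in the non-ventilated arrays and 8.00, 7.91, 8.27, 7.69 and 8.34 in low stretch normocapnia. The low stretch hypercapnia arrays gave 7.61, 8.00, 7.93, 8.27 and 7.74, and the high stretch groups spanned 8.10 to 8.71 (median 8.47) in normocapnia and 8.06 to 8.75 (median 8.39) in hypercapnia. H2-Ob, a chain of the H2-O protein that restrains peptide loading in B cells, was the antigen presentation gene measured, and no ventilated array reached a control. It fell by 2.14-fold in low stretch normocapnia, 2.35-fold in low stretch hypercapnia, 1.61-fold in high stretch normocapnia and 1.68-fold in high stretch hypercapnia. In contrast, 4 genes passed in no comparison with the controls: Cd37, Ly86, Pou2f2 and Bach2. Bach2 was near the threshold: it passed as lower in low stretch normocapnia under 9 of 20 other settings, 3 of them with 1 array left out (adjusted p from 0.0118 to 0.0489 in limma), and Cd37 in low stretch hypercapnia and Pou2f2 in high stretch hypercapnia passed as lower under 2 each. Cd37, a tetraspanin, Ly86, the binding partner of CD180, and Pou2f2 are made by other leukocytes as well. Whether this bears on their signal was not tested. Spib and Ebf1, which cells outside the B lineage also make, passed as lower in 4 and 3 of the 4 comparisons. Ly86 gave log2 signals of 9.48, 9.08, 9.30, 9.06 and 9.63 in the non-ventilated arrays and 9.84, 9.42, 9.21, 9.13 and 10.08 in low stretch normocapnia. Its values were 9.83, 9.35, 9.39, 9.58 and 8.93 in low stretch hypercapnia, 9.26 to 10.13 (median 9.56) in high stretch normocapnia and 9.10 to 9.99 (median 9.62) in high stretch hypercapnia. All groups of Ly86 overlapped, and its 95% interval in low stretch normocapnia was -0.16 to 0.61. The interval of Cd37 there was -0.43 to 0.08, that of Pou2f2 -0.23 to 0.14 and that of Bach2 -0.42 to -0.07.

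**Figure D2:**
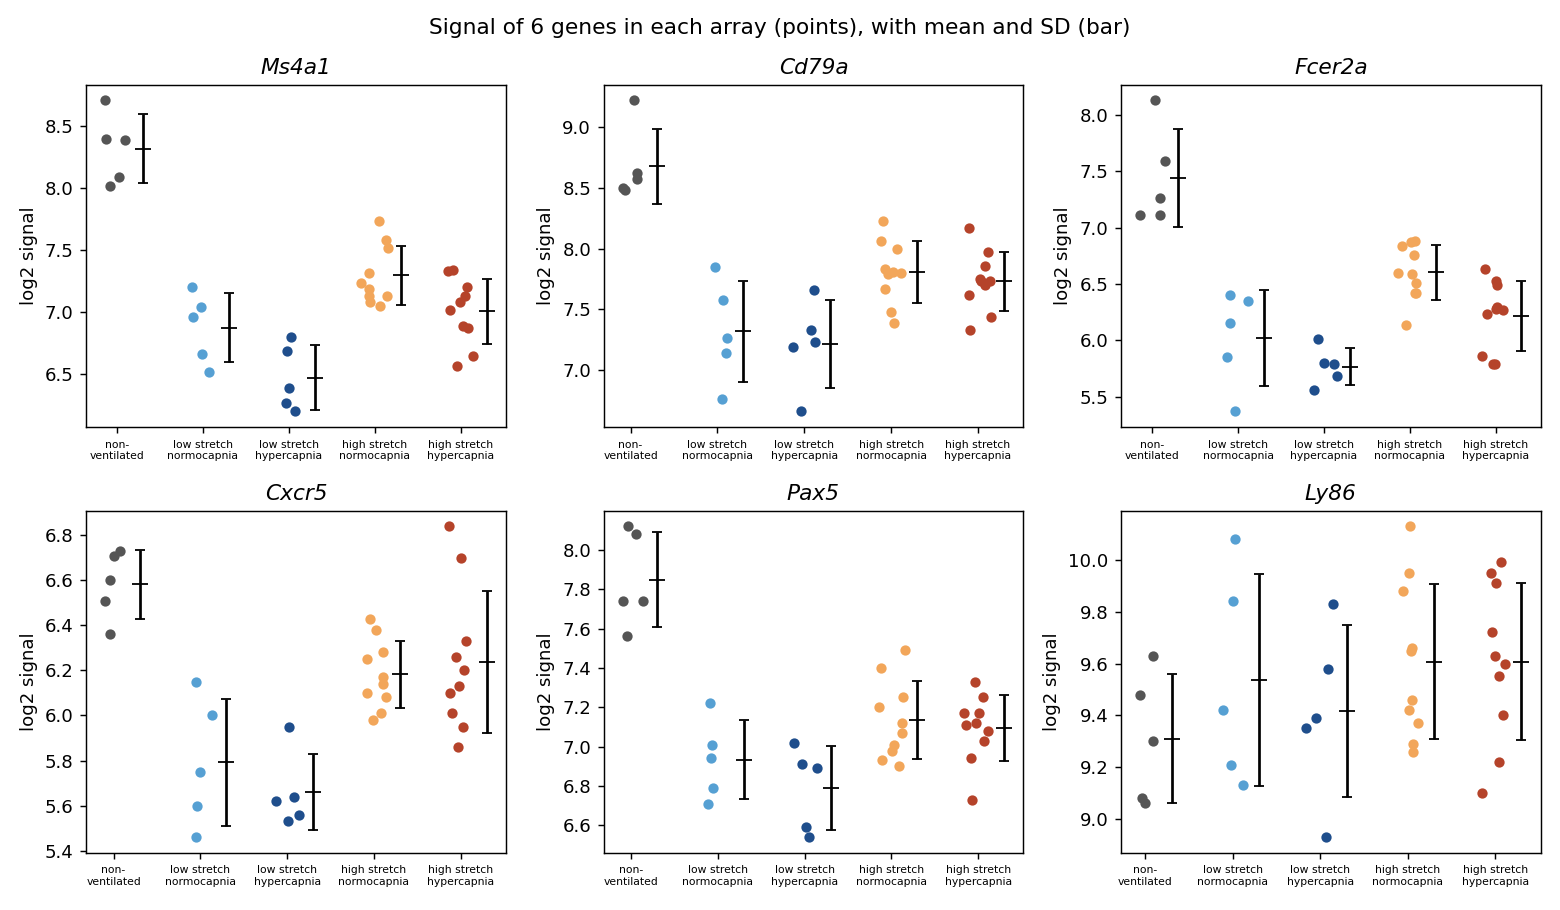
Log2 signal of Ms4a1, Cd79a, Fcer2a, Cxcr5, Pax5 and Ly86 in every array (points, spread sideways for legibility) of the 5 groups, with the group mean and SD beside them; the vertical axes differ and do not start at 0. The controls stand clear of the ventilated arrays for Ms4a1, Cd79a, Fcer2a and Pax5, and all groups overlap for Ly86.

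Some of these calls were close to the threshold. Under other settings of the analysis (all compared in the section on processing), 6 of the 26 calls in low stretch normocapnia lapsed at least once: Vpreb3, Cd72, Ccr6, Tnfrsf13b, Tnfrsf13c and Ebf1. With each array left out in turn, 21 of the 26 held throughout.

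Promoters are shown because most of these genes fell together. RefSeq windows from 250 bases before to 50 after the start (build GRCm38.p6) were found for 26 of the 31 genes, 32 windows in all, and not for Ms4a1, Cd79b, Blk, Cxcr5 and Ciita. Both strands were searched for the octamer ATGCAAAT, the EBF1 core TCCCNNGGG, the box GAGGAAGT of PU.1 and SPI-B, and the cyclic AMP element TGACGTCA. The octamer was in the windows of Blnk, Ccr6 and Vpreb3, 11.5% of the 26 genes, and in a window of 1.97% of all 27025 genes of the table (1.74% of its 32851 windows). A gene with several windows counts once and has more chances to match. The PU.1 and SPI-B box was in Cd37, Cd72 and Fcrl1 (11.5%, against 3.69% of all genes). The EBF1 core was in Cd22 (3.85%, against 7.48%), and the cyclic AMP element, present in 2.03% of all genes, was in none of the 26. A match is not a bound site. The 250 bases before the start of 4 genes that fell are printed 5′ to 3′ along the gene, with the match in capitals: the octamer read on the opposite strand in Blnk and Vpreb3, the EBF1 core with its palindrome on both strands in Cd22, and the box on the opposite strand in Cd72. Cd22 followed from the order set for printing; the other 3 were chosen after the matches were seen, to show each motif found. The match begins 130 bases before the start in Blnk (chr19:40994222-40994471, minus strand), 45 in Vpreb3 (chr10:75948050-75948299, plus strand), 49 in Cd22 (chr7:30879029-30879278, minus strand) and 49 in Cd72 (chr4:43454627-43454876, minus strand).
Blnk: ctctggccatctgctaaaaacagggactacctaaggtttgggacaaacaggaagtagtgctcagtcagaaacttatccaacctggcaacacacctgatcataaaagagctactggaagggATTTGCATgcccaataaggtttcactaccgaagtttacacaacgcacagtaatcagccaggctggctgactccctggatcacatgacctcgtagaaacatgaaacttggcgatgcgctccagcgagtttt
Vpreb3: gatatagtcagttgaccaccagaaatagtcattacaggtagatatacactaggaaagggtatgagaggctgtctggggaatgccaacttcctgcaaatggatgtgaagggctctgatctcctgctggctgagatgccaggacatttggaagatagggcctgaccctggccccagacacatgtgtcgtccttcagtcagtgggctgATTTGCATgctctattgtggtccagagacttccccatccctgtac
Cd22: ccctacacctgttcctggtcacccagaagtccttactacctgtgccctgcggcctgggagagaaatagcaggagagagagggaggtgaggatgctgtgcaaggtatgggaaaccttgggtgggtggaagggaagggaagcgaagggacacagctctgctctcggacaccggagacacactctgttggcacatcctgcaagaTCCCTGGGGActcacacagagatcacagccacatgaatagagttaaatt
Cd72: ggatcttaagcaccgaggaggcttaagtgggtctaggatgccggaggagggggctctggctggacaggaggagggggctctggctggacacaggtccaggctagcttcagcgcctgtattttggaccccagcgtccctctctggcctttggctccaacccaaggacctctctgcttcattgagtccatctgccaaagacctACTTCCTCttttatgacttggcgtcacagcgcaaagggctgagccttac

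These genes differed in the size of their fall: Cd22 changed by -0.80 in low stretch normocapnia, Blnk by -0.69, Cd72 by -0.50 and Vpreb3 by -0.46. Cd37, which holds the same box as Cd72, did not pass in any comparison with the controls.

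B cell genes gave higher signals in high stretch than in low stretch lungs, though most stayed below the controls. In normocapnia 12 of the 31 genes passed as higher at high stretch, where 8.72% of all genes did, and none as lower; the median difference was 0.236, against -0.02 over all genes. In hypercapnia 10 passed as higher (5.43% of all genes), with a median of 0.253 against -0.032. The group means ran from the controls through both high stretch groups to both low stretch groups for 21 of the 31 genes and for 2.52% of all genes. Cd79a, Cd79b, Blk, Blnk, Bank1, Ms4a1, Cxcr5 and H2-Ob passed in both comparisons, which share no array. In normocapnia Cd22, Fcer2a, Fcmr and Bach2 passed too, and in hypercapnia Fcrl1 and Pou2af1. The high stretch groups also differed from the low stretch groups in breathing rate, end-expiratory pressure and inspired oxygen, and these cannot be told apart from stretch.

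By role, 5 of 7 receptor and signalling genes rose in each comparison. Bank1 was 0.55 ± 0.15 (SE) higher on the log2 scale at high stretch in normocapnia (adjusted p = 0.00931) and 0.62 ± 0.15 higher in hypercapnia (adjusted p = 0.00668). Its high stretch arrays overlapped the top of the low stretch range in both. Blnk rose by 0.31 in normocapnia and 0.53 in hypercapnia (adjusted p = 0.014 and 0.000109), and in hypercapnia all 10 high stretch arrays exceeded all 5 low stretch arrays. Cd79a rose by 0.49 and 0.52, Cd79b by 0.39 and 0.39 and Blk by 0.38 and 0.36, each with overlapping arrays. Vpreb3 and Ralgps2 did not pass, with intervals in normocapnia of -0.40 to 0.07 and -0.13 to 0.19.

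Of the surface antigens, 4 of 11 passed as higher in normocapnia and 2 of 11 in hypercapnia. Fcer2a had the largest difference of the set in normocapnia, 0.58 (95% interval 0.25 to 0.91), and did not pass in hypercapnia (0.45, adjusted p = 0.0731). Ms4a1 rose by 0.43 and 0.54 and Fcmr by 0.40 in normocapnia. Fcrl1 rose by 0.51 in hypercapnia (adjusted p = 0.000726), and its difference in normocapnia was 0.22. Cxcr5, the follicle homing receptor, rose by 0.39 and 0.58; the other 4 homing and tumour necrosis factor family genes did not pass. H2-Ob rose by 0.41 and 0.49.

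Bach2 gave log2 signals of 8.24, 8.30, 7.93, 7.97 and 7.80 in the non-ventilated arrays and 7.64, 7.93, 7.75, 7.72 and 7.98 in low stretch normocapnia. Its values were 8.02, 7.99, 7.90, 7.90 and 7.86 in low stretch hypercapnia, 7.82 to 8.26 (median 8.17) in high stretch normocapnia and 7.98 to 8.31 (median 8.11) in high stretch hypercapnia. Bach2, a repressor that delays plasma cell formation, was the transcription factor that passed in normocapnia (0.31, adjusted p = 0.0034), and its high stretch values lay around those of the controls. Pou2af1 gave log2 signals of 8.03, 7.80, 7.33, 7.97 and 7.36 in the non-ventilated arrays and 7.11, 7.47, 7.31, 7.42 and 7.59 in low stretch normocapnia. In low stretch hypercapnia Pou2af1 read 7.41, 7.18, 7.19, 7.50 and 6.94, and the high stretch groups spanned 7.38 to 7.93 (median 7.61) in normocapnia and 7.39 to 8.37 (median 7.63) in hypercapnia. Pou2af1, the coactivator OCA-B, passed in hypercapnia (0.45, adjusted p = 0.0204), with replicate 8 the highest of its group. Pax5 did not pass in either, with differences of 0.20 and 0.30.

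The number of stretch calls depended on single arrays of the low stretch groups. In normocapnia 6 genes passed without low stretch normocapnia replicate 2 and 4 without replicate 4, and only Blk, Fcmr and Bach2 kept their call in every fit with 1 array left out. In hypercapnia 6 passed without low stretch hypercapnia replicate 5, and Blnk, Bank1, Ms4a1, Fcrl1, Cxcr5 and H2-Ob kept their call in every such fit.

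**Figure D3:**
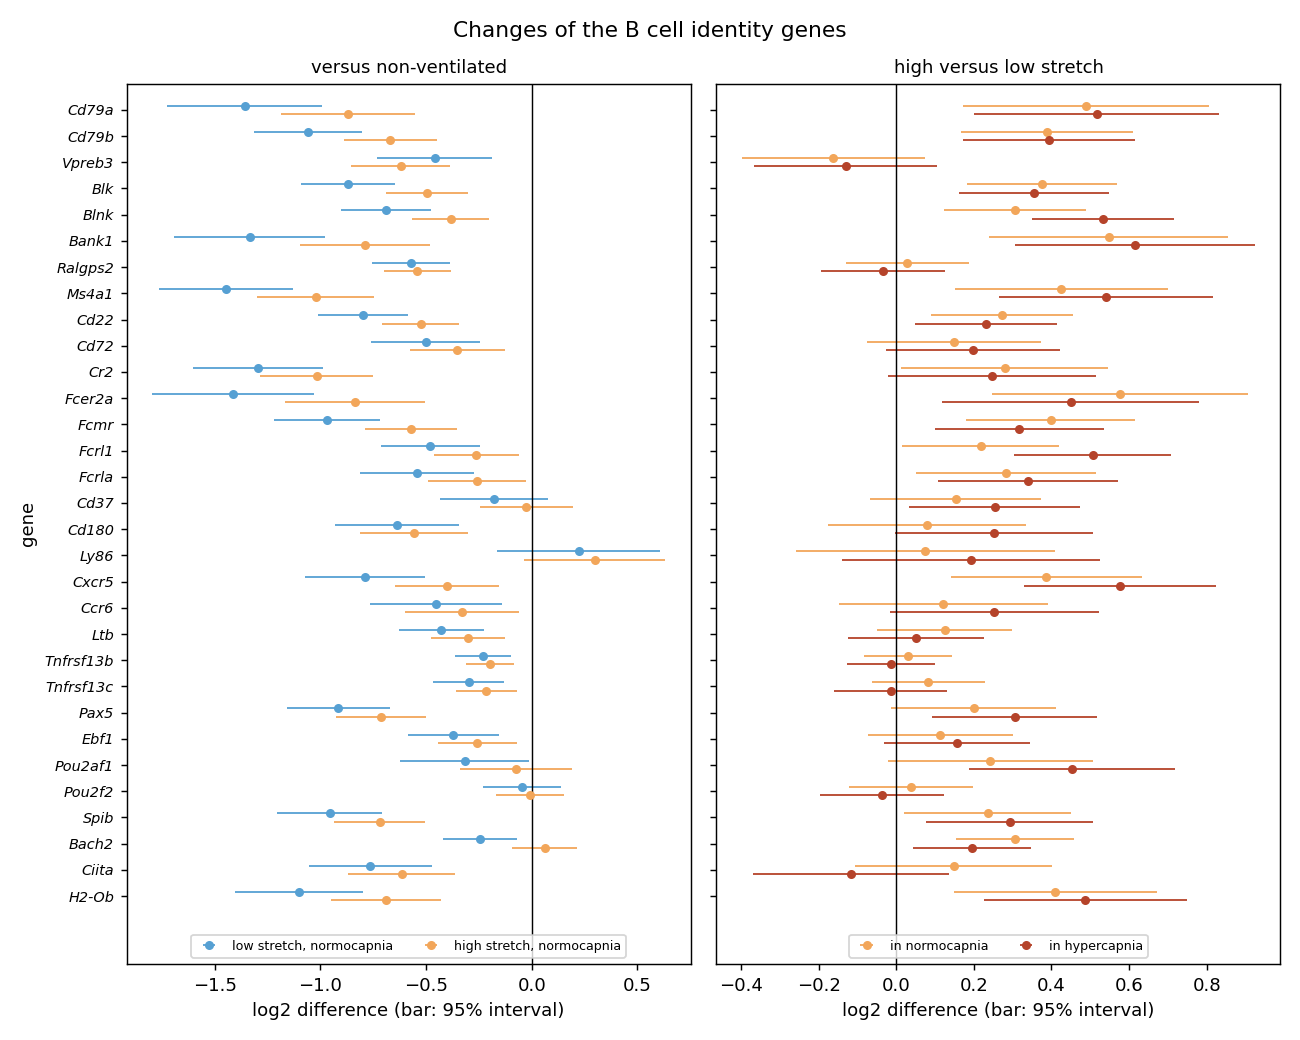
Log2 difference of each B cell gene with its 95% interval from limma: on the left the normocapnia groups against non-ventilated lung, on the right the change from low to high stretch under each CO2 condition. On the left most points lie below 0 and the low stretch points lie further down; on the right most lie above 0.

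Added CO2 moved no B cell gene past the threshold. At low stretch 0 of 31 passed (0.115% of all genes passed in either direction); 4 had an unadjusted p under 0.05 in limma, Ms4a1, Fcrl1, Fcrla and Cd180, all lower in hypercapnia, which is 12.9% of the 31 where 9.22% of all genes were under that level in either direction. At high stretch 0 of 31 passed (5.56% of all genes), and 7 had an unadjusted p under 0.05, all lower: Ms4a1, Fcer2a, Fcmr, Fcrla, Cd180, Ltb and Pou2f2. These are 22.6% of the 31, against 17.5% of all genes in either direction. Those shares of all genes count both directions, whereas the B cell genes under that level were all lower. Of all 19938 genes, 1791 were lower at that level at high stretch and 945 at low stretch. The median difference over the 31 genes was -0.111 at low stretch (22 negative) and -0.049 at high stretch (20 negative). Over all genes these medians were 0.006 and -0.006. Ms4a1 differed by -0.41 at low stretch (95% interval -0.72 to -0.09, adjusted p = 0.356) and -0.29 at high stretch (-0.51 to -0.07, adjusted p = 0.132). Cd180 differed by -0.47 and -0.30, with intervals of -0.77 to -0.18 and -0.51 to -0.09. The nearest to the threshold at high stretch was Ltb (-0.22 ± 0.07 SE, adjusted p = 0.0553); its values ran from 7.22 to 7.80 (median 7.43) in normocapnia and from 7.19 to 7.37 (median 7.28) in hypercapnia, which overlap. Ltb, Fcer2a, Fcrla, Ms4a1, Pou2f2 or Cd180 passed under some other settings, at most 3 at a time and always lower. For Cd79a the intervals were -0.47 to 0.26 and -0.33 to 0.18, and for Pax5 -0.39 to 0.10 and -0.21 to 0.13.

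The interaction asked whether the effect of stretch differed with CO2. It passed for 0 of 31 genes and 0.0% of all genes in limma. At an unadjusted p under 0.05 there was 1, Fcrl1 (0.29 ± 0.14 SE, unadjusted p = 0.0484, adjusted p = 0.997); over all genes 505 were lower and 388 higher at that level. The stretch effects in normocapnia and hypercapnia, including those called in 1 of them, are thus not shown to differ.

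Pooled over the 5 groups, many B cell genes also varied together between animals of the same group. With the group means removed, the deviation of each of the 30 other genes was correlated with that of Ms4a1 over the 35 arrays, with 100000 permutations within groups and Benjamini-Hochberg adjustment over the 30. For 18 the Pearson correlation was positive with adjusted p under 0.05, and for 16 the Spearman correlation was. The median r was 0.45, against -0.04 over all genes, of which 0.792% had an r at or above 0.45. Bank1 had r = 0.72 and rho = 0.70 (permutation p = 2e-05 for each, adjusted 0.0005 and 0.0002). Cd79a had r = 0.69 and rho = 0.70, Cr2 0.64 and 0.68, and Pax5 0.51 and 0.53. Vpreb3, Tnfrsf13c, Pou2f2 and Bach2 had r of 0.02, 0.05, -0.01 and 0.05. Without the 2 arrays in which Ms4a1 lay farthest from its group mean, high stretch normocapnia replicate 3 and high stretch hypercapnia replicate 6, 13 passed and the median r was 0.41. Non-ventilated replicate 1, the highest control for 24 of the genes, stayed in that check. Within the 10 arrays of high stretch normocapnia alone 0 of 30 passed (median r 0.38), and within high stretch hypercapnia 1 did (median r 0.45). Genes measured on the same array share its RNA and its hybridisation. Among all genes, those whose deviations were most like Ms4a1 over the 35 arrays were Bank1, Cd79a, Tespa1 (r = 0.66), Blk and Cr2, and 8 of the first 20 were on the B cell list.

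Other genes of B cell biology, taken from lists that do not overlap the 31, did not all follow; they are given for low stretch normocapnia against the controls unless another group is named. Of 17 further receptor signalling genes, 3 passed as lower in low stretch normocapnia and 4 as higher (6.63% of all genes passed as higher). Siglecg, an inhibitory lectin of B cells, changed by -0.62 and Rasgrp3, a Ras activator, by -0.35. In high stretch normocapnia 2 of the 17 passed as lower and 9 as higher, where 18.9% and 17.4% of all genes did. In high stretch hypercapnia 1 and 8 did, where 17.6% and 16.3% of all genes did. In low stretch normocapnia Fcgr2b, the inhibitory IgG receptor also made by myeloid cells, rose by 0.82 and Vav1, a signalling protein of all leukocytes, by 0.76. Of 12 other transcription factors, 6 passed as lower, with Ikzf3 at -0.68, Mef2c at -0.52 and Irf4 at -0.46, and 2 as higher: Spi1, the factor PU.1 of myeloid cells, at 0.77 and Bcl6 at 0.55. MHC class II genes passed as lower in 4 of 6, led by H2-Oa, the partner chain of H2-Ob, at -0.54; in each of the other 3 ventilated groups 1 of 6 passed, H2-Oa, at -0.50, -0.29 and -0.26 in low stretch hypercapnia, high stretch normocapnia and high stretch hypercapnia. Of 9 plasma cell genes 1 passed (Sdc1, -0.29), of 5 germinal centre genes 1 as higher (Fas, 1.12), and of 3 immunoglobulin constant genes none; Ighm differed by -0.24 (limma adjusted p = 0.192) and Igha by -0.38 (adjusted p = 0.451). Of 8 ligands and chemokines for B cells, 1 passed as lower, Cxcl12, a chemokine that retains lymphocytes, at -0.60.

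At high against low stretch in normocapnia, 4 of the 17 receptor signalling genes passed as higher and none as lower (9.56% of all genes were lower). Rasgrp3 and Bcl10 each rose by 0.50, Malt1, the partner protease of BCL10, by 0.49 and the transcription factor Nfatc1 by 0.27. Of the 12 transcription factors Irf4 passed (0.38), and of the 6 MHC class II genes none passed.

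Markers of other cells moved beside the B cell genes. Against the controls, with normocapnia first, 5.17% and 7.02% of all genes passed as lower at low stretch and 18.9% and 17.6% at high stretch. In the same order 6.63% and 7.99% passed as higher at low stretch and 17.4% and 16.3% at high stretch. Neutrophil markers rose in ventilated lung: 11 of 13 passed as higher in low stretch normocapnia, with a median of 2.67 and Mmp8 at 4.21. The mean log2 signal of the 13 ran from 6.69 to 8.66 in the controls, 9.33 to 10.13 in low stretch normocapnia, 9.05 to 10.61 in low stretch hypercapnia, 9.25 to 10.35 in high stretch normocapnia and 9.06 to 10.52 in high stretch hypercapnia. The same number of the 13 passed as higher in each other ventilated group. Monocyte markers passed as higher in 3 of 9 in each low stretch group and in 6 and 5 of 9 at high stretch in normocapnia and hypercapnia. They did not all rise: 1 of 9 passed as lower in low stretch hypercapnia and 2 of 9 in high stretch hypercapnia. The median difference of the 9 was 0.638 and 0.042 at low stretch and 1.116 and 0.985 at high stretch, normocapnia first. Signals are relative to all RNA of an array, and the part of these cells in the fall of the B cell genes was not tested. Between high and low stretch in normocapnia 0 of 13 neutrophil markers passed in limma in either direction, at a median difference of 0.042. T cell markers passed as lower in 5 of 17 in each low stretch group. In high stretch normocapnia and hypercapnia 1 and 2 of 17 did, below the shares of all genes there. As higher, 0 and 1 of the 17 passed at low stretch and 1 and 2 at high stretch, normocapnia first. In low stretch normocapnia Cd2 was at -0.74 and Cd3g at -0.53. The mean signal of the T cell markers ran from 6.87 to 7.21 in the controls and 6.62 to 7.14 in low stretch normocapnia, which overlap. At high stretch in normocapnia 1 of 17, Cd2, passed as higher than at low stretch (0.38). Of 10 natural killer cell markers 1 passed as lower in low stretch normocapnia (Ncr1, an activating receptor, at -0.66), 3 in low stretch hypercapnia, and 4 in each high stretch group; their median differences were -0.294, -0.41, -0.275 and -0.331 with low stretch first and normocapnia first in each pair. Ncr1 fell in all 4 groups, to -1.34 in both hypercapnia groups. The part of these cells in the B cell result was not tested. Endothelial markers passed as lower in 5 of 10 in low stretch normocapnia and in 5 or 6 in the other groups, with Egfl7 at -0.72 and Kdr at -0.71, and their mean signal of 11.10 to 11.19 in the controls lay above the 10.77 to 10.94 of low stretch normocapnia. Their part in the B cell result was not tested either. Of the 8 plasmacytoid dendritic cell markers 1 passed as lower, Ly6d at -1.17, a gene that B lineage cells also make. Of the other lists 1 of 8 conventional dendritic cell, 1 of 11 alveolar macrophage and 3 of 10 alveolar epithelial markers passed as lower, 3 of 8 platelet markers passed as higher, and of 3 erythroid markers none passed in limma.

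**Figure D4:**
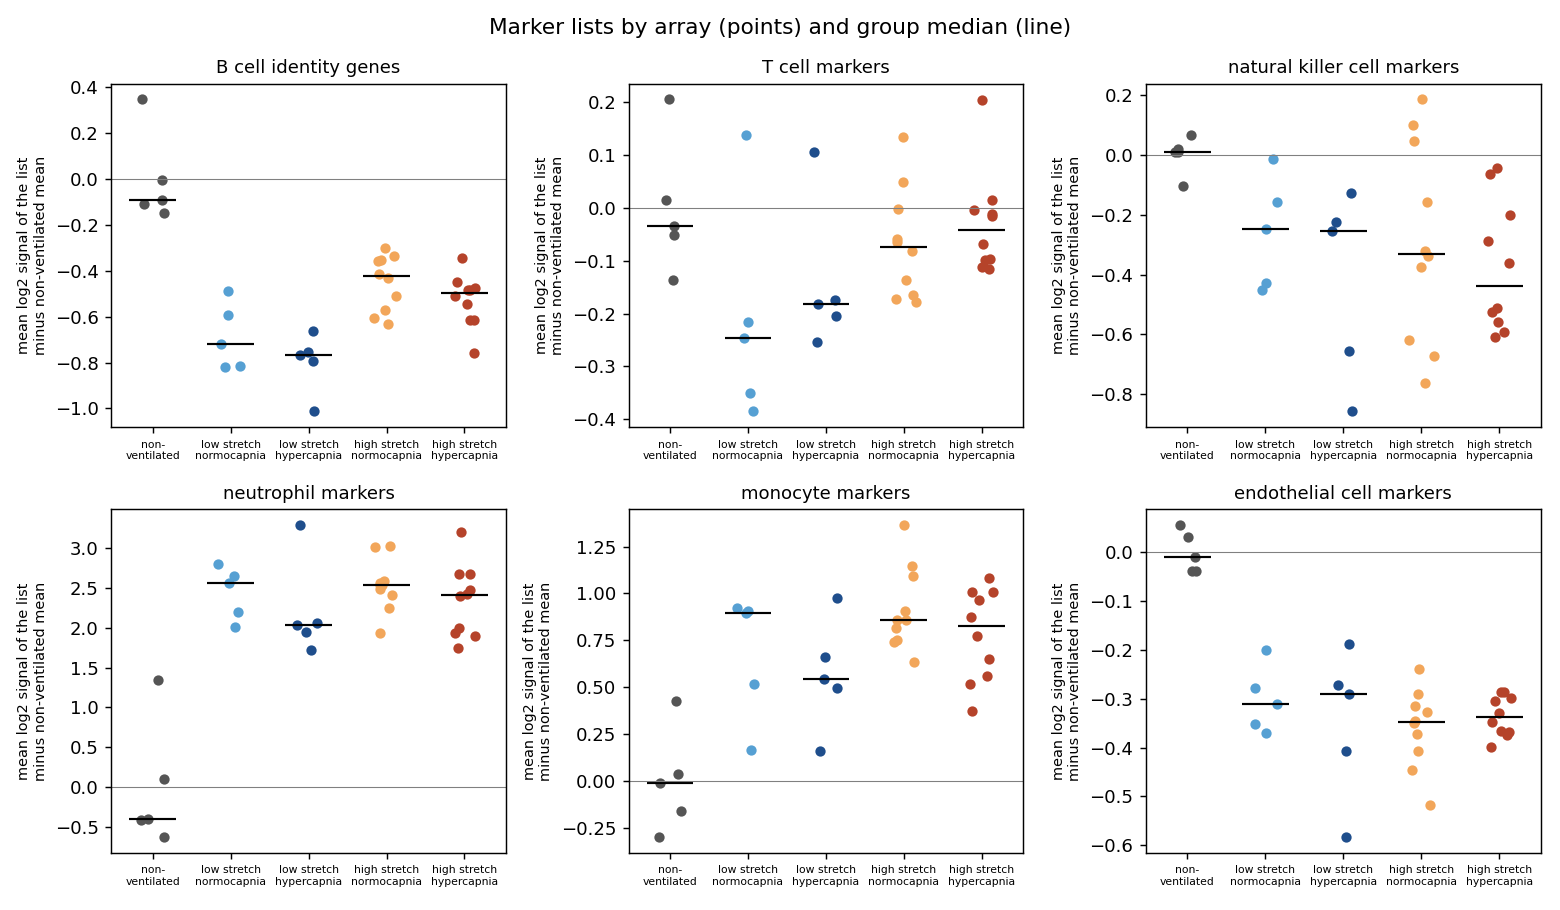
Mean log2 signal of each marker list in every array (points), as its difference from the mean of the 5 controls, with the group median (line); the vertical axes differ. The B cell genes separate the controls from all ventilated arrays and lie higher at high than at low stretch on the median, the neutrophil markers lie above the controls in all ventilated groups, and the T cell markers overlap.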

How the data were processed

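The deposited values are log2 signals. RMA, Affymetrix Expression Console and Partek are named by the submitters' processing notes, without versions, and the authors' use of each is not given in the sources used here. RNA came from snap-frozen lung, 1 animal to an array, per the labels' protocols. Of 35557 probe sets, 21789 carried 1 gene symbol in the platform annotation, 1621 several, and 12147 were not in it. Where a gene had several single-symbol probe sets, the one brightest on average was used, which gave 19938 genes.

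A model with 1 mean per group was fitted to the 35 arrays together (limma 3.58.1, lmFit then eBayes, under R 4.3.3). Tests were two-sided, p-values were adjusted by Benjamini-Hochberg over all genes within a comparison, and the threshold was an adjusted p of 0.05. Errors of differences are limma standard errors, and intervals are 95% intervals.

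The B cell genes and all other lists were chosen with earlier results of these data known. All measured members are named. Values by array are given for 10 genes listed by name and for each member that passed in a comparison of stretch or CO2; other lists name up to 4 of their largest changes that passed. Ly86, Ltb and the genes of the correlation ranking were added after their values were seen.

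Correlations used Python 3.11.15 with numpy 2.4.6. No 2 arrays were identical (highest correlation 0.99267). The labels give no batch, date or pairing, and the deviations of same-numbered arrays had a median correlation of 0.023. The fit was tested on simulated data for low stretch normocapnia against non-ventilated lung over 19938 genes: log2 changes of 0.3, 0.6 and 1 were called in 36.8%, 86.8% and 98.8% of cases, and 0.0476% of unchanged genes were called. The simulated noise was normal and independent between genes, with the same spread in all groups. Fewer genes were changed than passed in the data, so these rates may not carry over to it. The number of arrays limits the precision.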

Additional observations from a re-analysis of the deposited data

Results flagged for a closer look

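Among 155 groups of 5 or 10 arrays (31 genes in 5 groups), 14 had 1 array far from the others; chance gives about 1 in 20. Of these, 8 were non-ventilated replicate 1, which was the highest control. Its log2 signal was 9.22 for Cd79a (next array 8.62), 9.29 for Cd79b (8.68), 8.07 for Blk (7.60) and 8.00 for Cd72 (7.23). It was also 7.73 for Cr2 (7.01), 8.69 for Fcmr (8.13), 8.13 for Fcrla (7.63) and 9.16 for Cd37 (8.70). Without this array the counts of genes lower than the controls were 24 and 22 in the low stretch groups and 21 and 22 in the high stretch groups, normocapnia first.

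Non-ventilated replicate 3 stood high for Vpreb3 at 8.62. In the low stretch hypercapnia group replicate 5 stood low for Cd22 at 6.61, replicate 4 high for Cxcr5 at 5.95 and replicate 3 high for Ciita at 7.69. Low stretch normocapnia replicate 5 stood high for Ciita at 7.36, and high stretch hypercapnia replicate 6 stood low for Fcrl1 at 6.49.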

How the results depend on the processing

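No B cell gene's difference that passed changed sign under an alternative. Of differences that did not pass, 132 of 2765 changed sign with 1 array left out and 30 of 1487 otherwise, counted on values rounded to 3 decimals; the largest of these in the reported fit had a size of 0.13. The median interaction over the 31 genes, 0.043, became -0.057 with array weights and -0.043 and -0.028 without replicate 5 of low stretch normocapnia or of low stretch hypercapnia. Outside the fits that left out 1 array, 2544 of the results for single genes kept their side of the threshold, 29 lost a call and 55 gained one. Restricting the test to genes above the median level left 13 B cell genes, of which 10, 10, 9 and 9 passed as lower against the controls in low stretch normocapnia, low stretch hypercapnia, high stretch normocapnia and high stretch hypercapnia, and 5 and 5 as higher at high stretch in normocapnia and hypercapnia; fewer genes were tested. For CO2 at high stretch the count of 0 became 2 with only the arrays of the groups compared, 3 with array weights, 1 with a trended robust prior, 1 with arrays centred on their median, 1 after a second quantile normalization and 2 with the array SD as a covariate, all lower; the cause was not tested.

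With each array left out in turn, the counts ran from 24 to 27 in low stretch normocapnia, 22 to 26 in low stretch hypercapnia, 21 to 25 in high stretch normocapnia and 22 to 24 in high stretch hypercapnia against the controls. For stretch they ran from 4 to 13 in normocapnia and 6 to 14 in hypercapnia, and for CO2 from 0 to 0 at low and 0 to 1 at high stretch; the interaction gave 0 throughout.

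Replicate numbers are shared by the groups, and the labels do not say whether they pair animals. Of 55 same-numbered pairs 17 correlated above 0.1, up to 0.38. Their median was 0.023, against -0.008 for pairs with other numbers. With the number as a replicate block, 26, 26, 23 and 24 genes passed as lower against the controls, 9 and 8 as higher with stretch, and 0 with CO2.

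Over all genes, calls fell from 2353 to 1385 and from 2993 to 1429 for the low stretch groups against the controls when only the groups compared were fitted, and from 2017 to 1269 for stretch in hypercapnia with the replicate block. For CO2 at low stretch 23 became 0, 78, 64 or 100 (groups compared alone, genes above the median, second quantile normalization, array SD), and at high stretch 1109 became 2052 with array weights. The number of B cell genes whose deviations followed Ms4a1 was 18 after a second quantile normalization, and 23 followed Cd79a when it took the place of Ms4a1.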

Other observations

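Several genes outside the B cell list had deviations close to those of Ms4a1 across the 35 arrays with group means removed, and they are named after their values were seen. Septin6 had r = 0.63, Tec, a kinase of the receptor cascade, 0.59, Mcoln2 0.58, Ly6d 0.57, the interleukin receptor Il21r 0.57 and Bcl11a, a factor of early lymphoid cells, 0.56. These values come from the same arrays and were not tested further.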
